A study of Mus musculus with 4 samples.

Results

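Cell cycle and DNA replication genes were described across the livers of mice exposed on 2 occasions to the aromatic solvent ethylbenzene or to phosphate-buffered saline (PBS). The set was a named list of 35 genes of the cell division machinery, with cyclins and their kinases, kinase inhibitors, replication factors and mitotic genes. A probe set was annotated to 34 of them, among the 18193 genes on the array, and Ccnb1 was not analysed here. The brightest probe set by mean signal stood for each gene. Of the 34 genes, 22 had a mean signal that reached the filter level of 120.0, the median over all probe sets, as did 11513 genes of the array. The other 12 genes lay near background and are given apart. Signals are quantile-normalized, in arbitrary units, and differ in scale between probe sets, so they are compared between arrays and not between genes. Ratios and folds were taken after 43.2 was added to each signal and are given on the log2 scale unless called fold.

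All animals were C57BL/6J mice aged 2 months, and total liver RNA was measured on Affymetrix arrays. The first exposure was a pair of intraperitoneal injections 24 h apart. A rest of 7 days came before the second, and livers were collected 5 h after it. E+E mice (5 animals) received ethylbenzene in both exposures, P+E mice (5 animals) PBS and then ethylbenzene, E+P mice (3 animals) ethylbenzene and then PBS, and P+P mice (3 animals) PBS in both. Each injection of ethylbenzene held 7 mmol per kg. RNA was pooled within a group and hybridised to 1 array per group, so the spread between animals was not measured and nothing could be tested against it. A 2-fold difference (1 on the log2 scale) served as a fixed rule of size that describes the arrays. Pool size and the second exposure cannot be told apart. In whole tissue, fewer cells of a type and less RNA per cell cannot be told apart either.

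Most hepatocytes of an adult liver rest outside the cell cycle and re-enter it after injury or loss of tissue. Mitogens act through D-type cyclins, which activate CDK4 and CDK6. These kinases and cyclin E with CDK2 release E2F factors from the retinoblastoma protein, and E2F factors drive genes of DNA replication. Genes of G2 and mitosis are switched on later, in part through a promoter element called the cell cycle genes homology region (CHR), often beside CCAAT boxes. In resting cells the DREAM complex can repress genes through the same E2F and CHR elements, and it is favoured by the CDK inhibitor p21, the product of Cdkn1a.

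These elements are what many of the listed genes share beyond their names. RefSeq promoter windows (assembly GRCm38.p6, from 250 bases before to 50 bases after a gene's start) were available for 29 listed genes and for 27025 genes in all, and both strands were searched. A gene with several windows counted when any of them held the word. E2F words were spelled TTCCCGC in some genes, TTCGCGC in others, or as TTGCCGC and also as TTGGCGC. An E2F word was found for 13 of the 29 genes (44.8%), against 10.9% of all genes. Among the 12 genes of S-phase entry, licensing and replication it was found for 8 (66.7%). A CHR word (TTTGAA or TTCGAA) was found for 10 of the 29 (34.5%), against 21.7% of all genes. It was found for 8 of the 10 G2 and mitosis genes (80%). CCAAT was found for 22 of the 29 (75.9%), against 41.1% of all genes. The 8 G2 and mitosis genes with a CHR word all had CCAAT in the same window, a pairing found for 8.61% of all genes. These matches are letters in a window, not measured binding. E2F words on opposite strands can overlap, as they do before Mcm6.

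The 250 bases before the start of 6 of the genes described below are shown, a choice made with their signals known. All are written 5′ to 3′ on the strand of the gene, with E2F words, CHR words and CCAAT (or its reverse complement) in capitals.
Cdk1 (chr10:69352913-69353162, minus strand): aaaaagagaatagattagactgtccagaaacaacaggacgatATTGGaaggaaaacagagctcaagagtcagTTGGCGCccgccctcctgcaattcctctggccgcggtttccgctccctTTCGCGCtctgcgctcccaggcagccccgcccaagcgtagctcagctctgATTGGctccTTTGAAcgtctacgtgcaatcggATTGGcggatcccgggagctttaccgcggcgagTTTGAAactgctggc
Cdc20 (chr4:118437344-118437593, minus strand): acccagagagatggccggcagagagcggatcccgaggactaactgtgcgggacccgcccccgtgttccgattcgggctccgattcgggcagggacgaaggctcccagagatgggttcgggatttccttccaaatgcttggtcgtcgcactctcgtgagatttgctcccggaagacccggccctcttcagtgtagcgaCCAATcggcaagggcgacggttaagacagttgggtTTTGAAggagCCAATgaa
Ccnb2 (chr9:70421555-70421804, minus strand): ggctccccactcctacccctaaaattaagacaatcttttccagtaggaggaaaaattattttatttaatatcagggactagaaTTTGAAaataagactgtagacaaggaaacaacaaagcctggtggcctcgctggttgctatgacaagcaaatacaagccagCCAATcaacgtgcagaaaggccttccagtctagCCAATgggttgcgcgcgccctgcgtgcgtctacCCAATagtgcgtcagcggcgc
Mcm6 (chr1:128359706-128359955, minus strand): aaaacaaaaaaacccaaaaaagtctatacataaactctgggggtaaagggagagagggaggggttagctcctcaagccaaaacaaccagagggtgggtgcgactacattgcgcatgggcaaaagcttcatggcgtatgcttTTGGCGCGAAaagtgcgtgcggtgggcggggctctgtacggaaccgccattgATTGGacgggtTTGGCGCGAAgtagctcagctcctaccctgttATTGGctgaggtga
Mcm10 (chr2:5012792-5013041, minus strand): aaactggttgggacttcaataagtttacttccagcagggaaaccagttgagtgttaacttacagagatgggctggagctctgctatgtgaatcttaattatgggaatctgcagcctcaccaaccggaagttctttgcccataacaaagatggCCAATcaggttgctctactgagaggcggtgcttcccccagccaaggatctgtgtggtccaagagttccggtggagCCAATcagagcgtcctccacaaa
Pcna (chr2:132253181-132253430, minus strand): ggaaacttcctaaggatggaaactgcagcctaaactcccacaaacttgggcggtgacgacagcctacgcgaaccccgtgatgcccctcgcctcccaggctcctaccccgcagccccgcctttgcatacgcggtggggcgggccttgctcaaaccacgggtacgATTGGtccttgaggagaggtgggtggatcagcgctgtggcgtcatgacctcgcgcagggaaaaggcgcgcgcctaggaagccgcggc
Cdk1 carried all 3 elements, with CHR words at positions -71 and -15 from its start and E2F words at -178 and -130. Cdc20 had a CHR word at -18 between CCAAT boxes at -53 and -8. Ccnb2 had CCAAT boxes at -87, -54 and -21 and CHR words at -167 and at 5, the latter past the bases shown. Mcm6 had overlapping E2F words at -109 and -106 and again at -46 and -43. Mcm10 and Pcna held CCAAT and none of the E2F or CHR letters searched for.

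The arrays differed in ways that touch the comparisons below. The 3 control probe sets of 18S ribosomal RNA had a geometric mean signal of 182 on E+E, 145 on P+E, 122 on E+P and 1872 on P+P, so the P+P array stood apart. The ratio of 3' to 5' Actb control signal was 3.77, 3.48, 3.84 and 4.55 in the same order. Summed signals of 6 measured hepatocyte markers of 7 listed lay between 674412 and 723793 on the 4 arrays. Most of this sum came from Alb, Apoa1 and Ttr, whose signals are among the brightest. Quantile normalization holds such signals to a few shared values, so the sum cannot show whether hepatocyte content was alike. Tat had 65181 on E+E and 80711 on P+E, against 41471 on E+P and 54943 on P+P. Hnf4a had 25375 and 25899, against 22133 and 27856, and Cps1 had 92098 and 96784, against 102407 and 95271. Pancreatic acinar markers (4 of 5 measured) summed to 4154 on E+E and 4038 on P+E, against 414 on E+P and 412 on P+P, and markers of neutrophils and marrow precursors (7 of 7) to 6437 and 4007, against 633 and 1310. The 7 neutrophil and marrow genes did not move together. S100a8 (2347 and 1506, against 151 and 116) and S100a9 (3183 and 2025, against 70.3 and 125) were higher on both ethylbenzene arrays, whereas Ngp had 413 and 166, against 138 and 346, and Camp had 137 and 48.9, against 130 and 219. Endothelial markers (5 of 5) summed to 5879 and 5659, against 7437 and 7435, and erythroid markers (4 of 5) to 2418 and 2351, against 3363 and 3864. The erythroid sum came mostly from Alas2 (1924 and 1805, against 2689 and 3287), and the other erythroid genes were not alike. Klf1 had 241 and 382, against 474 and 424. Epb42 had 121 and 29.5, against 28.8 and 39.6, and Hba-a1 had 133 and 136, against 172 and 114. The endothelial genes were not alike. Clec4g (3181 and 3375, against 4552 and 4528), Stab2 and Kdr were lower on E+E and P+E. Cdh5 was higher (805 and 546, against 370 and 355), and Pecam1 had 282 and 286, against 223 and 331. Markers of Kupffer cells (7 of 7) summed to 12368 and 10418, against 18682 and 11601, those of B cells (4 of 5) to 1051 and 865, against 816 and 798, and those of T cells (4 of 5) to 335 and 251, against 342 and 309. Stellate cell markers (5 of 5) summed to 16432 and 13837, against 16195 and 12727, mostly from Dcn (12944 and 11385, against 12050 and 9325). Lrat had 594 and 408, against 877 and 516, and Col1a1 had 302 and 127, against 319 and 328. Cholangiocyte markers (4 of 5) summed to 1265 and 1008, against 799 and 920, with Sox9 at 554 and 396, against 106 and 108, and Epcam at 412 and 165, against 421 and 428. No marker was at 0, but Cd3d, Cd3e, Cd3g, Cd79a, Mpo, Elane, Ltf, Krt7 and Epb42 had a mean near background. Of the measured T cell genes only Cd8a was past the filter. The part of these cells in the results below was not tested.

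**Figure D1:**
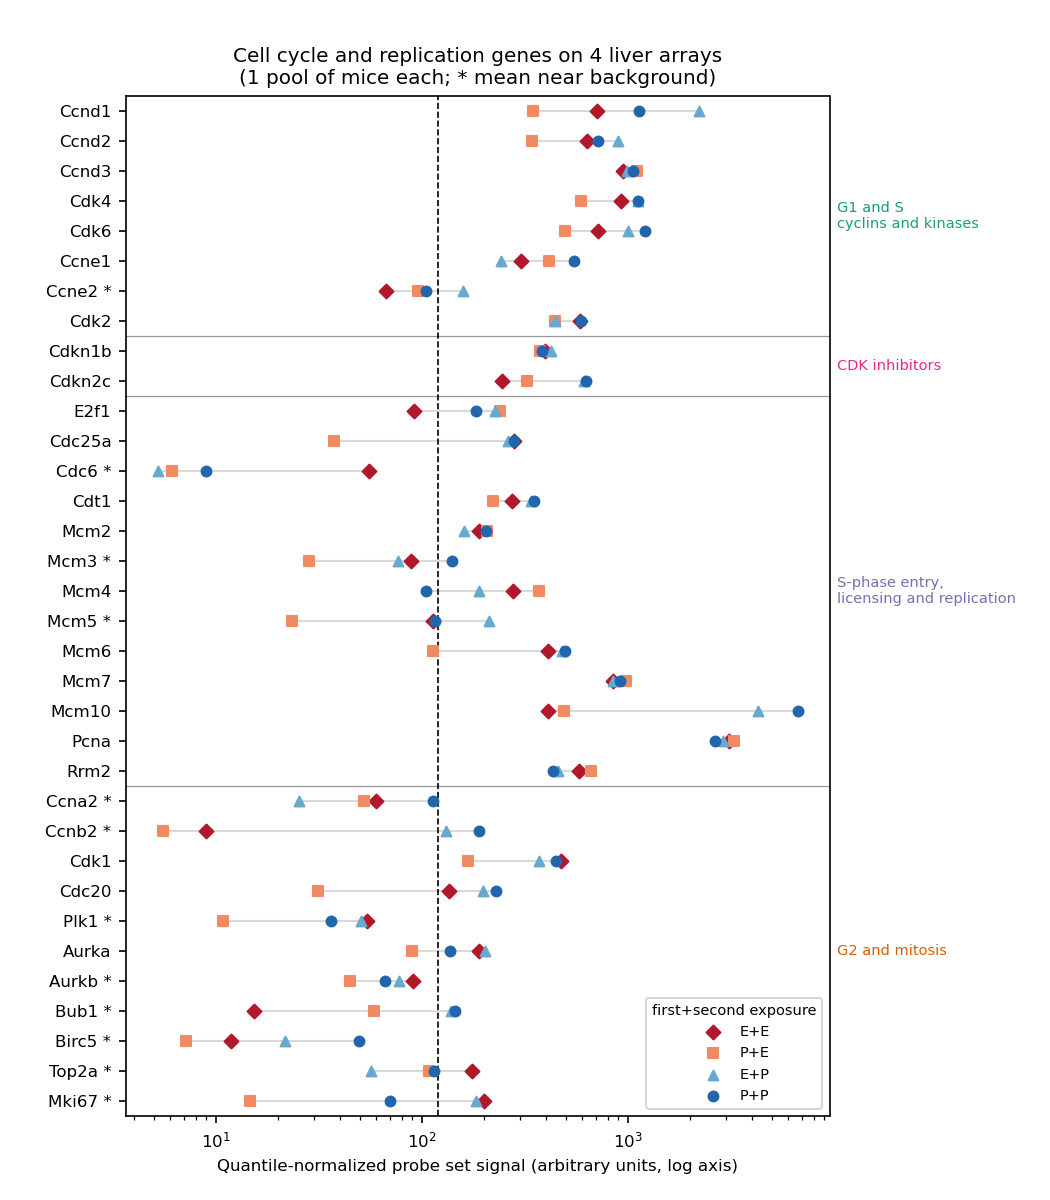
Quantile-normalized signal of the 34 measured cell cycle and replication genes (log axis, arbitrary units) on the E+E, P+E, E+P and P+P arrays, by role. Each point is 1 array of pooled RNA, the dashed line is the filter level of 120.0 and an asterisk marks a mean near background. Pcna, Mcm7 and Ccnd3 stayed within a narrow span, whereas Ccnd1 and Mcm10 were lower on both arrays of mice given ethylbenzene second.

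For the effect of the second exposure, P+E was set against P+P (PBS beforehand) and E+E against E+P (ethylbenzene beforehand). These ratios share no array and are given in this order. Cyclin D1 and Mcm10 were lower by at least 2-fold each time. Several other genes, among them Cdk6, Cdk1 and Mcm6, were lower by at least 2-fold in the first ratio and less than 2-fold apart in the second. The replication factors Pcna and Mcm7, the cyclin gene Ccnd3 and the inhibitor gene Cdkn1b differed little in either.

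By count, 7 of the 22 genes past the filter were lower by at least 2-fold on P+E, compared with P+P, where 6.7% of all genes were, and 1 was at least 2-fold higher (6.53% of all genes). On E+E against E+P, 4 of 22 were at least 2-fold lower (6.75% of all genes) and none was at least 2-fold higher (6.91%). In both ratios, 2 of 22 were at least 2-fold lower (1.86% of all genes) and none at least 2-fold higher (2.87%). Both ratios lay below 0 for 11 of the 22 (37.4% of all genes) and above 0 for 4 (27.7%), namely Mcm2, Mcm4, Pcna and Rrm2. The median log2 ratio of the 22 genes was -0.51 and -0.09, beside -0.07 and -0.05 over all genes. By role, the medians were -0.87 and -0.27 for 7 genes of G1 and S cyclins and kinases, 0.05 and 0.04 for 10 genes of S-phase entry, licensing and replication, and -1.23 and -0.08 for 3 genes of G2 and mitosis. The count of 7 of 22 became 3 of 18 when all probe sets of a gene were averaged, 3 of 11 with a filter at the 75th percentile and 10 of 34 with no filter. It was 5 of 22 with signals below the filter level raised to it, which left out Cdc25a and Cdc20. It was 6 of 22 with E+P in place of the P+P array and 8 of 22 at a common 75th percentile. P+E and E+P differ in both exposures, so their ratio does not measure the second exposure alone. With E+P in place of P+P, Cdk6 (-0.95) and Cdk1 (-0.97) fell just short of 2-fold. Ccnd2 then passed it, with 343 on P+E and 895 on E+P. Of the 11 genes below 0 in both, Cdkn1b (-0.02 and -0.09) and Aurka (-0.45 and -0.08) were not below 0 in both with signals as deposited, and the 4 above 0 were the same genes under each scaling.

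**Figure D2:**
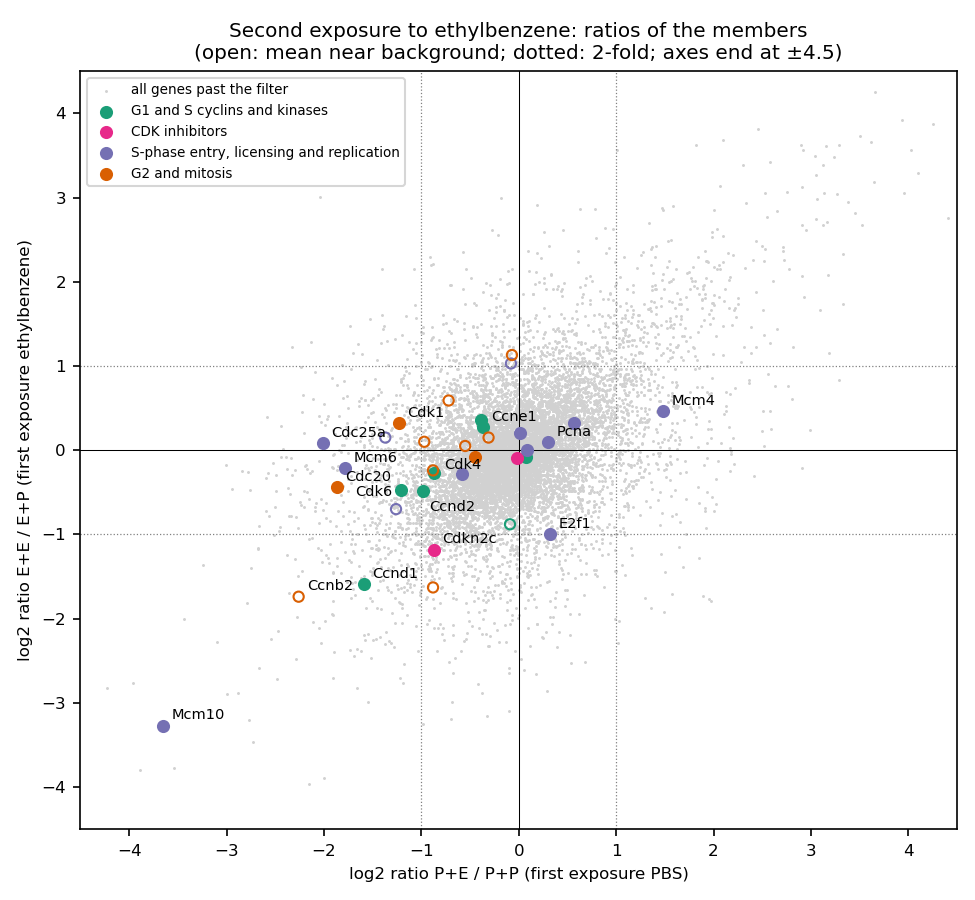
Log2 ratio of P+E over P+P (x axis) against E+E over E+P (y axis) for all genes past the filter (grey) and the cell cycle and replication genes (coloured by role; open circles have a mean near background). Dotted lines mark 2-fold. Of the coloured filled circles, Ccnd1 and Mcm10 lie past the lower line on both axes. Cdk6, Cdc25a, Mcm6, Cdk1 and Cdc20 lie past it on the x axis only, with the P+E signals of Cdc25a, Mcm6 and Cdc20 below the filter level. Of the open circles, Ccnb2 lies past it on both axes and Mcm3 and Mcm5 on the x axis only.

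Among the D-type cyclins, which start the passage through G1, Ccnd1 had signals of 706 on E+E, 347 on P+E, 2214 on E+P and 1133 on P+P. It was lowest on the arrays of mice given ethylbenzene second, 3.01-fold lower in each ratio (log2 -1.59 in both). It also stood higher in mice given ethylbenzene first, by 0.94 on the log2 scale in each pair. A further probe set of Ccnd1 gave -1.88 and -1.65, whereas the third gave -0.08 and -1.34, with signals of 206, 188, 587 and 202 on E+E, P+E, E+P and P+P. With E+P in place of the P+P array, the P+E ratio of Ccnd1 was -2.53.

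Ccnd2, another D-type cyclin, had signals of 632 on E+E, 343 on P+E, 895 on E+P and 721 on P+P, just short of 2-fold in the first ratio (-0.98) and at -0.48 in the second. Its 5 probe sets past the filter did not share a direction in the first ratio, where they ran between -1.09 and 1.64, and all lay below 0 in the second. Ccnd3 stayed between 945 and 1109 on the 4 arrays.

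Cdk4 and Cdk6 encode the kinases that D-type cyclins activate. Cdk4 had signals of 927 on E+E, 592 on P+E, 1123 on E+P and 1120 on P+P. All 3 of its probe sets were lower in both ratios, at -0.87, -0.63 and -0.72 in the first and at -0.27, -1.35 and -1.07 in the second. Cdk6 had 714 on E+E, 499 on P+E, 1008 on E+P and 1216 on P+P, 2.32-fold lower in the first ratio and at -0.47 in the second. Its other probe set past the filter gave -0.67 and -0.07. Thus every probe set past the filter of these 2 kinase genes pointed down in both ratios, with sizes that varied between probe sets.

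Cyclin E and its partner CDK2 act at the entry into S phase. Ccne1 had signals of 302 on E+E, 416 on P+E, 243 on E+P and 549 on P+P, and Cdk2 had 584, 442, 444 and 592 in the same order. Both were lower in the first ratio (-0.37 and -0.39) and higher in the second (0.27 and 0.36), by less than 2-fold. The other probe set of Ccne1 past the filter went the other way in both (0.63 and -0.45), and with E+P in place of the P+P array the P+E ratio of Ccne1 was 0.68.

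The listed inhibitors of cyclin-dependent kinases did not move alike. Cdkn1b, which encodes p27, stayed between 376 and 426 on the 4 arrays. Cdkn2c, whose product p18 binds CDK4 and CDK6, had signals of 246 on E+E, 325 on P+E, 611 on E+P and 630 on P+P. Both arrays of mice given ethylbenzene second were lower, with log2 ratios of -0.87 and -1.18, and the gene had a single probe set.

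Mcm10, which helps to assemble the active replication fork, had the largest of these ratios among the 34 genes. Its signals were 410 on E+E and 492 on P+E, against 4314 on E+P and 6675 on P+P, which is 9.62-fold lower on E+E and 12.6-fold lower on P+E. The 2 other probe sets did not show this. The one past the filter had 151 on E+E, 291 on P+E, 259 on E+P and 281 on P+P (0.05 and -0.64), and the one near background gave 0.36 and 0.95. The probe set with the large ratios carries a suffix for probes shared by several transcripts of a gene, so which transcript it measured was not determined.

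The 6 genes Mcm2 to Mcm7 encode the subunits of 1 helicase, yet their signals did not go together. Mcm7 stayed between 847 and 980, and its 4 probe sets gave ratios between -0.31 and 0.70 in the first comparison. Mcm2 had 190 on E+E, 208 on P+E, 160 on E+P and 206 on P+P, ratios of 0.01 and 0.20. Mcm4 had 278 on E+E, 370 on P+E, 190 on E+P and 105 on P+P. With P+P below the filter level, Mcm4 was at least 2.53-fold higher on P+E, the only gene at least 2-fold higher in that ratio, and at 0.46 in the second. Its other probe set had the same directions (1.19 and 0.12), and with E+P in place of P+P the P+E ratio was 0.83.

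Mcm6 went the other way, with 412 on E+E, 113 on P+E, 482 on E+P and 494 on P+P. Only its P+E signal was low, below the filter level, so P+E was lower by at least 3.29-fold, and the second ratio was -0.21. Its 2 probe sets near background gave -0.31 and 0.42 in the first ratio. Mcm3 and Mcm5 lay near background. Mcm3 had 89.1, 28.4, 76.4 and 141 on E+E, P+E, E+P and P+P, and Mcm5 had 114, 23.5, 213 and 116.

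Of the genes that act before and at the fork, Pcna, the sliding clamp of DNA polymerases, had 3111 on E+E, 3270 on P+E, 2910 on E+P and 2653 on P+P (0.30 and 0.10). Rrm2, the small subunit of ribonucleotide reductase, had 583, 664, 459 and 433 in that order. Its ratios of 0.57 and 0.32 were above 0, and its 2 other probe sets gave 0.31 and 0.01 in the first and 0.14 and -0.14 in the second. Cdt1, which loads the helicase with Cdc6, had 274 on E+E, 221 on P+E, 341 on E+P and 351 on P+P (-0.58 and -0.28). Cdc6 was near background on every array, at 55.7 on E+E and between 5.25 and 8.97 on the others.

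Cdc25a, a phosphatase that activates cyclin-dependent kinases, had 280 on E+E, 37.4 on P+E, 263 on E+P and 282 on P+P. Its P+E signal alone was low. Against the filter level P+E was lower by at least 1.99-fold, and the second ratio was 0.08. The 2 other probe sets, near background, gave -0.17 and 0.59 in the first ratio. E2f1, the transcription factor that drives replication genes, had 92 on E+E, 241 on P+E, 227 on E+P and 184 on P+P. Its E+E signal was the low one, 2-fold below E+P and just at the rule of size, or at a log2 ratio of -0.73 when E+E was raised to the filter level. In the first ratio E2f1 was at 0.32. A probe set of E2f1 near background gave 0.69 in the second ratio, with 263 on E+E and 146 on E+P.

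**Figure D3:**
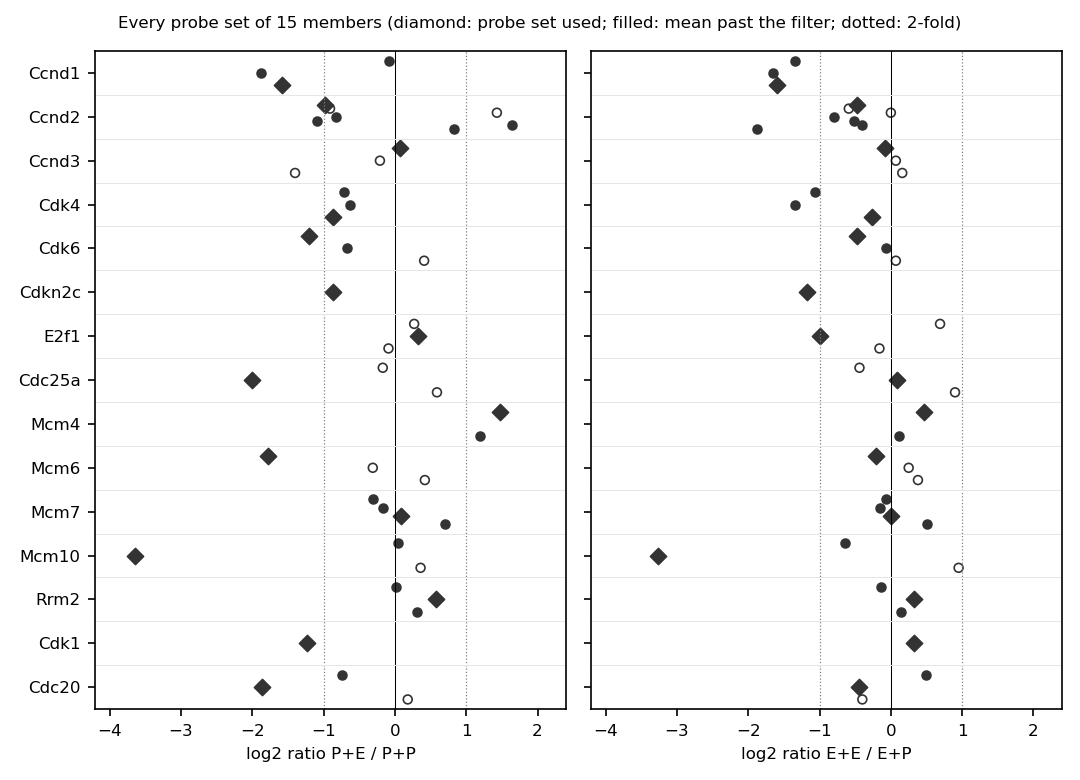
Log2 ratios of every probe set of the cell cycle and replication genes described in most detail, for P+E over P+P (left) and E+E over E+P (right). Diamonds are the probe sets used, filled symbols have a mean past the filter and dotted lines mark 2-fold. All probe sets of Cdk4 lie below 0 in both panels, whereas those of Mcm10 and Ccnd2 spread to both sides of 0 on the left.

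Few genes of G2 and mitosis had a signal to compare. Cdk1, the kinase that drives mitosis, had 475 on E+E, 168 on P+E, 370 on E+P and 451 on P+P. Its P+E signal was the lowest, 2.34-fold below P+P, while E+E was 1.25-fold above E+P. Cdc20, which activates the ubiquitin ligase that ends mitosis, had 135 on E+E, 31.5 on P+E, 199 on E+P and 229 on P+P. Against the filter level P+E was lower by at least 1.67-fold, and the second ratio was -0.44. The other probe set of Cdc20 past the filter was lowest on P+E too, with 239 on E+E, 50.8 on P+E, 157 on E+P and 114 on P+P. It gave -0.74 in the first ratio, less than 2-fold, and went the other way in the second (0.49). Aurka, a kinase of the spindle poles, had 189, 89.4, 203 and 138 on E+E, P+E, E+P and P+P, less than 2-fold apart in both ratios.

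The remaining 8 measured genes of this role lay near background. Mki67, the gene of the proliferation antigen Ki-67, had 200 on E+E, 14.7 on P+E, 184 on E+P and 70 on P+P. Top2a, the topoisomerase that untangles chromosomes, had 175, 108, 56.6 and 115 in the same order, and of these only the E+E signal reached the filter level. Ccnb2, a mitotic cyclin, had 8.97 on E+E and 5.55 on P+E, against 131 on E+P and 190 on P+P. Set to the filter level, its ratios were -0.52 and -0.09. Bub1, a spindle checkpoint kinase, had 15.4 and 58.6 on E+E and P+E, against 139 and 145 on E+P and P+P.

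Ccna2 (cyclin A2), the mitotic kinases Plk1 and Aurkb and the survivin gene Birc5 were below the filter level on all 4 arrays. Ccna2 had 59.8 on E+E, 52.4 on P+E, 25.3 on E+P and 114 on P+P, and Plk1 had 54.4, 10.9, 51 and 36.2 in that order. Aurkb had 90.9, 45.1, 77.8 and 66.4, and Birc5 had 11.9, 7.2, 21.7 and 49.6. Ccne2, the second cyclin E gene, was near background as well, at 66.8, 96.4, 159 and 105. Over the 12 genes near background, the median signal was 63.3 on E+E, 26 on P+E, 77.1 on E+P and 110 on P+P, and 2, 0, 5 and 3 of them reached the filter level in the same order. Signals this low carry no order between the arrays that these data can support.

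The P+E array was the lowest of the 4 for 12 of the 22 genes past the filter, where it was the lowest for 27.3% of all genes, a count looked at after the values were seen. These were 5 of 7 G1 and S cyclin and kinase genes, all 3 G2 and mitosis genes, 3 of 10 S-phase genes and 1 of 2 inhibitor genes. They include near ties, namely Cdk2 (442 on P+E and 444 on E+P) and Cdkn1b (376 on P+E and 382 on P+P). P+E was also the highest of the 4 for 7 of the 22 (31.8%, against 22.3% of all genes), among them 6 of 10 S-phase genes. In the other lists of cell cycle genes described below, P+E was the lowest for 2 of 16 brake genes, 11 of 35 further replication genes, 3 of 16 further mitosis genes and 5 of 15 growth signal genes.

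Whether a second probe set gave the same direction could be asked for 12 of the 22 genes. All probe sets past the filter shared their sign for 8 of them in the first ratio and for 6 in the second, beside 49.8% and 53.2% of all genes with several such probe sets. Of the 5 among them at least 2-fold apart in the first ratio 4 kept the sign (73% of all such genes), and of 2 in the second both did (76.2%). Probe sets of a gene share the RNA and the array, so they check the probes and not the animals.

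What remained of the first exposure after 7 days was measured by E+P against P+P, where PBS followed it, and by E+E against P+E, where ethylbenzene followed it, in this order. None of the 22 genes was at least 2-fold apart with the same sign in both ratios, as 0.469% of all genes were. On E+P against P+P, none was at least 2-fold higher (2.58% of all genes) and only Ccne1 was at least 2-fold lower (2.73% of all genes), at -1.05, while its other probe set gave 0.79. On E+E against P+E, 4 were at least 2-fold higher (3.98% of all genes), namely Cdc25a, Mcm6, Cdk1 and Cdc20, and E2f1 was at least 2-fold lower (3.99% of all genes). The median log2 ratio of the 22 genes was -0.04 and 0.17, beside -0.01 and 0.00 over all genes, and the second became -0.11 with probe sets averaged and -0.07 with a filter at the 75th percentile.

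Ccnd1 came closest to a shared difference, 1.92-fold higher in each ratio. Its other probe sets gave 0.02 and 1.36 on E+P against P+P and 0.25 and 0.11 on E+E against P+E. Ccnd2 was higher by 0.30 and 0.80, while Cdk4 was at 0.00 and 0.61 and Cdk6 at -0.26 and 0.48. For Cdk1 the ratios were -0.26 and 1.29, and for Mcm6 they were -0.03 and 1.54, or 1.48 with P+E at the filter level. For Cdc25a they were -0.09 and 2.00 (0.99 at the filter level), and for Cdc20 -0.17 and 1.25 (0.13 at the filter level). Pcna, Mcm7 and Cdkn1b lay within 0.20 of 0 in both.

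The difference of the ratios of the second exposure, E+E over E+P minus P+E over P+P, was at least 1 on the log2 scale for Cdc25a (2.09), Mcm6 (1.58), Cdk1 (1.55) and Cdc20 (1.42), that is for 4 of 22, where 8.08% of all genes were. It was -1 or lower for E2f1 (-1.32) and Mcm4 (-1.01), 2 of 22, where 7.03% of all genes were. With low signals at the filter level these were 1.07, 1.51, 1.55 and 0.29 for the higher genes and -1.05 and -0.88 for the lower ones. The same 4 genes thus stood out in every ratio that contains the P+E array, which supplied 1 low signal for each. In E+E against E+P, which does not contain it, they were at 0.08 for Cdc25a, -0.21 for Mcm6, 0.32 for Cdk1 and -0.44 for Cdc20. Ccnd1 had a difference of 0.00 and Mcm10 of 0.38.

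Other genes of the pathway were taken from 4 lists. Of 16 cell cycle brake genes past the filter of 20 listed, 2 were higher and 2 lower by at least 2-fold in the P+E/P+P and the E+E/E+P ratio alike (2.87% and 1.86% of all genes). Cdkn1a had signals of 6820 on E+E and 7290 on P+E, against 94.1 on E+P and 138 on P+P (log2 5.34 in the first ratio, and 5.39 in the second with E+P at the filter level). Btg2, an antiproliferative gene, had 2228 and 2985, against 408 and 257 (3.33 and 2.33). Tob1, of the same family, had 418 and 801, against 2956 and 3135, and was lower (-1.91 and -2.70). Wee1, the kinase that restrains CDK1, had 183 on E+E and 303 on P+E, against 742 on E+P and 768 on P+P (-1.23 and -1.80). The brake list therefore had members far apart in both directions, and its medians were -0.04 and 0.06.

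Of 35 further genes of the replication origin and fork past the filter, of 42 listed, none was at least 2-fold apart with the same sign in both ratios. In the first, 1 was higher and 3 were lower by at least 2-fold, in the second 1 and 4, and the medians were -0.05 and -0.26. Over all genes, 6.53% were higher and 6.7% lower in the first, and 6.91% and 6.75% in the second, so these counts lay near those of all genes. Of 16 further mitosis genes past the filter, of 34 listed, none was at least 2-fold apart in the first ratio and 4 were at least 2-fold lower in the second (6.75% of all genes), with medians of -0.03 and -0.22. Of 15 genes of growth signals upstream of cyclin D1, of 18 listed, only Lgr5 was at least 2-fold apart with the same sign in both. Lgr5, a receptor that amplifies Wnt signals, had 159 on E+E and 74.2 on P+E, against 511 on E+P and 291 on P+P, at -1.04 with P+E at the filter level and at -1.45. The medians of the growth signal list were -0.12 and 0.01, close to those of all genes.

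**Figure D4:**
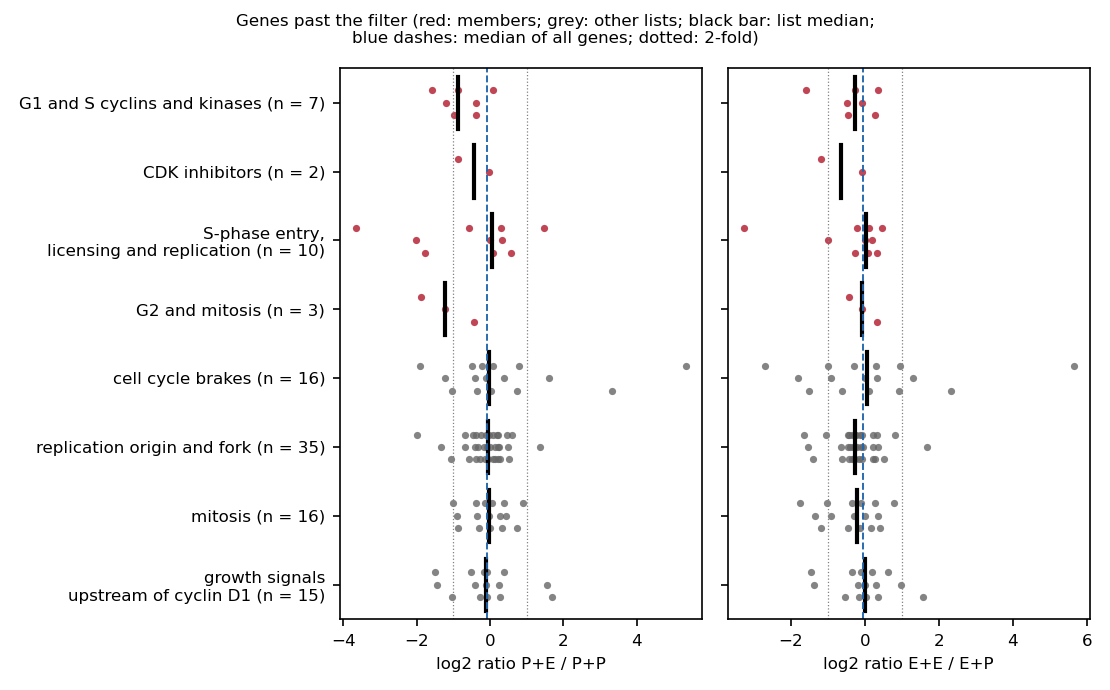
Log2 ratios of genes past the filter for P+E over P+P (left) and E+E over E+P (right), for the 4 roles (red) and the 4 other lists (grey). Black bars are list medians, blue dashes the medians of all genes (-0.07 and -0.05) and dotted lines 2-fold. The median of the G1 and S genes is lower on the left (-0.87) than on the right (-0.27). Both are the values of the Cdk4 probe set used, and the other Cdk4 probe sets were lower on the right. Cdkn1a is the brake gene far to the right in both panels.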

How the data were processed

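Each of the 4 arrays measured 1 pool of liver RNA. The authors deposited linear probe set intensities for 45101 probe sets. The summarising software was not given in the sources used here, but the mean after trimming 2% of probe sets at each end was 500.0 on every array. Log2 medians lay 0.24 apart, so intensities were quantile-normalized over the 4 arrays, and ratios are differences of log2(signal + 43.2), where 43.2 is the 25th percentile of deposited intensities. This understates differences of low genes. Probe sets were named by the platform annotation with symbols updated through RefSeq (GRCm38.p6): 34945 had 1 symbol, 932 had several and were not used, and 64 were controls. Genes passed the filter when their mean log2 signal was no lower than the median probe set. A signal below that level was raised to it for a fold given as at least.

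With 1 array per group there was no p-value. All listed genes are reported, and of the other lists those at least 2-fold apart with 1 sign in both second exposure ratios, at most 4 a direction. The genes and lists were chosen with earlier results of these data known. The ratio and filter steps were tested on simulated data in which only genes with bright signals were changed. Changes in low signals were not covered. Python 3.11.15, NumPy 2.4.6 and pandas 2.3.3 were used.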

Additional observations from a re-analysis of the deposited data

How the results depend on the processing

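With 1 array per group no replicate could be left out. No paired analysis was possible because each group holds 1 array. With signals as deposited, a common 75th percentile or a pseudocount of 14.9, every count kept within 1.5 times and every median within 0.1. Low signals limit what these counts can show. For P+E over P+P (1 gene higher, 7 lower, median -0.51), a filter at the 75th percentile (11 genes) gave 0, 3 and -0.87. Averaged probe sets (18 genes) gave 3 lower and -0.30, no filter (34 genes) -0.65, unique probe sets (19 genes) -0.63, a pseudocount of 142.1 -0.38, and E+P in place of P+P, an alternative chosen after seeing the data, 0 higher and -0.69. For E+E over E+P (0 higher, 4 lower, median -0.09), no filter gave 2 higher, the pseudocount of 142.1 gave 2 lower, averaged probe sets 2 lower and 0.06, and the stricter filter -0.27. In both ratios, 1 gene in place of 2 was lower with averaged or with unique probe sets. For E+P over P+P (0 higher, 1 lower), no filter gave 1 and 2, and the stricter filter and the larger pseudocount gave 0 lower. For E+E over P+E (4 higher, 1 lower, median 0.17), the stricter filter gave 0, 0 and -0.07, averaged probe sets 1, 0 and -0.11, no filter 7 higher and 0.32, the larger pseudocount and signals at the filter level 2 and 0, and unique probe sets 0 lower. For the difference of ratios (4 higher, 2 lower, median 0.33), the stricter filter gave 0, 0 and 0.00, averaged probe sets 1, 1 and -0.08, no filter 9 higher and 0.52, the larger pseudocount 0 lower and 0.22, unique probe sets 1 lower and 0.19, and signals at the filter level 1 lower. With unique probe sets Mcm10 was at 0.05 for P+E over P+P, and E2f1 turned to 0.69 for E+E over E+P, 1.60 for E+E over P+E and 0.43 for the difference. With averaged probe sets E2f1 was at 0.08 for E+E over P+E. With unique probe sets these values came from another probe set of each gene, and averaging took in all probe sets of E2f1. The cause of the other changes was not tested. Ccnd1 stayed at least 2-fold lower in 10 of 10 alternatives for P+E over P+P (-2.53 to -1.18). It did so in 9 of 9 for E+E over E+P (-1.65 to -1.47). The value of -2.53 is P+E over E+P, where both exposures differ. These counts also include alternatives that could not change Ccnd1. No filter, the stricter filter, unique probe sets and signals at the filter level kept its probe set and signals, at -1.59 in both ratios. The Ccnd1 probe set at -0.08 for P+E over P+P entered only with averaged probe sets (-1.18) and was not used alone.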

Other observations

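Outside the comparisons above, further genes around the cell cycle had uneven signals, picked here after their values were seen. Cdkn1c, the gene of the CDK inhibitor p57, had 169 on E+E and 169 on P+E, against 15.1 on E+P and 14.1 on P+P, with a mean near background. Gmnn, whose product geminin blocks helicase loading, had 439 on E+E and 663 on P+E, against 1368 on E+P and 1095 on P+P. Cks2, a small partner of cyclin-dependent kinases, had 1081 and 1401, against 2826 and 2627. Btg1, an antiproliferative gene, had 5452 and 5888, against 2775 and 1911. Fen1, a nuclease of lagging strand synthesis, stood out on E+E alone, with 905 on E+E, 238 on P+E, 255 on E+P and 269 on P+P. Myc had 1649 on E+E, 1185 on P+E, 1275 on E+P and 334 on P+P, so that only P+P was low.

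The E+E array was the lowest of the 4 for 9 of 16 further mitosis genes past the filter (56.2%), against 29.7% of all genes, and for 7 of 16 brake genes (43.8%). For the listed cell cycle and replication genes it was the lowest for 5 of 22 (22.7%).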
